A study of Rattus norvegicus with 3 samples.

Results

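The transcripts of 10 chemokine genes (Ccl2, Ccl3, Ccl4, Ccl7, Ccl9, Ccl20, Cxcl1, Cxcl2, Cxcl10 and Cxcl12) were followed in cultured fetal rat heart muscle cells under 3 media. They were picked by name, with earlier results of these arrays known, as genes of the CC and CXC families, and were read from the 12 Affymetrix probe sets that carry only their symbol. They are 10 of the 14218 genes measured. Cardiomyocytes were isolated by enzyme digestion from Wistar rats, an outbred laboratory strain, at the fetal stage, plated for 48 hours and exposed over the next 24 hours to fresh culture medium (the control), to medium conditioned by skeletal myoblasts or to medium conditioned by cardiac fibroblasts. The labels name no allele or agent other than the media. Each medium was measured on 1 array, so there is no replicate check, standard error or p-value for any difference between media, and the number of arrays limits the precision.

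Chemokines are small secreted proteins that bind G protein-coupled receptors on leukocytes and direct their movement along a gradient. The CC and CXC families are named for whether the first cysteines of the protein lie side by side or are separated by another residue. Many members are induced within hours by interleukin-1, tumour necrosis factor or Toll-like receptor ligands through the transcription factor NF-kB, Cxcl10 is also a classical interferon-induced gene, and Cxcl12 is produced constitutively by stromal cells and acts through Cxcr4. In the heart, inducible chemokines are known for recruiting monocytes and neutrophils after injury.

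The RefSeq table of rat promoters (build GRCr8) held an entry for 7 of the 10 genes: Ccl7, Ccl9, Ccl20, Cxcl1, Cxcl2, Cxcl10 and Cxcl12. The 250 bases before the annotated start are shown for 5 of them, picked from genes high and genes not high in fibroblast-conditioned medium. Those of Ccl9, which had the largest difference of the 10, and of Ccl20 are not shown. Cxcl1, Cxcl2 and Ccl7 were high in fibroblast-conditioned medium, while Cxcl10 and Cxcl12 were not 2-fold higher there. Each sequence runs 5′ to 3′ on the strand of its gene, and capitals mark every match to the kappa-B consensus, the DNA element that NF-kB binds.
Cxcl1, chr14:17479322-17479571, minus strand: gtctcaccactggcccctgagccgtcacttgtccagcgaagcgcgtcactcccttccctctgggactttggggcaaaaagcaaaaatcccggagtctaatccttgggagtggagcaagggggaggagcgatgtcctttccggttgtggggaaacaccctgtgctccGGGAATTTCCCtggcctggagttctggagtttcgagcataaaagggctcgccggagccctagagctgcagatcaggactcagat
Cxcl2, chr14:17467256-17467505, minus strand: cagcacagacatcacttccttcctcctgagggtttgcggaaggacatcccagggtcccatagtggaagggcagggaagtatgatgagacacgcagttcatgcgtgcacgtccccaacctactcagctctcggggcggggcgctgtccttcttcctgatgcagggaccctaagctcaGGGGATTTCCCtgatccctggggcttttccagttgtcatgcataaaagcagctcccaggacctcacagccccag
Ccl7, chr10:67513845-67514094, plus strand: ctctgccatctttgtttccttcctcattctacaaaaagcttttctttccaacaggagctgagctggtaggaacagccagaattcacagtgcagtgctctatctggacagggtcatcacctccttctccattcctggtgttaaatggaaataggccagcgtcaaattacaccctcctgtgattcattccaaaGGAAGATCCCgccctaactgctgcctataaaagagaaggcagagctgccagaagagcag
Cxcl10, chr14:15988816-15989065, plus strand: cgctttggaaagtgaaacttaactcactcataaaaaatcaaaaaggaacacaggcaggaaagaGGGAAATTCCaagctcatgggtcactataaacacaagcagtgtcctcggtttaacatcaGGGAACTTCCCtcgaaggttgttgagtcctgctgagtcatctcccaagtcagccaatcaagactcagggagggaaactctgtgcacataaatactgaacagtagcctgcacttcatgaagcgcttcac
Cxcl12, chr4:152060531-152060780, plus strand: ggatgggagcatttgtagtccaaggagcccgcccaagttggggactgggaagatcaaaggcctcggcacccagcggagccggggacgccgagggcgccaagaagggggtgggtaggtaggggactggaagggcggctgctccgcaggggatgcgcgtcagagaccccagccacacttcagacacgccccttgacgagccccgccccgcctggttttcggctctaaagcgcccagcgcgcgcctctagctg

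The values below are on a log2 scale and were centred by the depositors on each probe set's median over the 3 arrays, so they give differences between media and no absolute level. A difference of 1 is 2-fold, and 2-fold was the size used for counting. In fibroblast medium minus control, 4.26% of the 14218 genes lay 2-fold or more above 0 and 2.6% lay 2-fold or more below. For myoblast medium against control the shares were 1.35% and 0.844%, and for myoblast against fibroblast medium 2.12% and 3.94%. Control transcripts meant to be added in equal amounts, read by 42 probe sets, differed by at most 0.68 in size in the first of these comparisons, 0.66 in the second and 1.02 in the last. The median of their centred values was 0.18 on the myoblast array and 0.00 on both others. As differences, their medians were 0.29 for myoblast medium minus control, 0.21 for myoblast minus fibroblast medium and 0.09 for fibroblast medium minus control. Centring each array on the median of the added control transcripts was added with the values in view. It moves the median of all genes to -0.18 in both comparisons of myoblast medium. The shares higher and lower then become 0.802% and 1.4% against control, and 1.46% and 5.37% against fibroblast medium. Because levels are removed, the labelled cell type could not be checked against the presence of cardiomyocyte transcripts.

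All 6 CC members and the neutrophil chemokines Cxcl1 and Cxcl2 were high on the array of fibroblast-conditioned medium, and none of these 8 genes was higher than 0.04 in myoblast medium relative to control. In fibroblast medium minus control the 8 ranged from 2.87 (7.32-fold) to 4.48 (22.3-fold). Cxcl12 was at 0.65 and Cxcl10 at -0.12. The median over all 10 was 3.64, and over all genes it was 0. The 8 of 10 that passed 2-fold compare with the 4.26% of all genes given above, but the genes were picked with this contrast known, so the count describes them and carries no further weight. All member probe sets had values on 2 arrays, and over the 9836 genes with such probe sets the share was 6.57%. Cxcl2, at 2.87, was the lowest member inside the 2-fold line and Cxcl12, at 0.65, the nearest outside it.

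**Figure D1:**
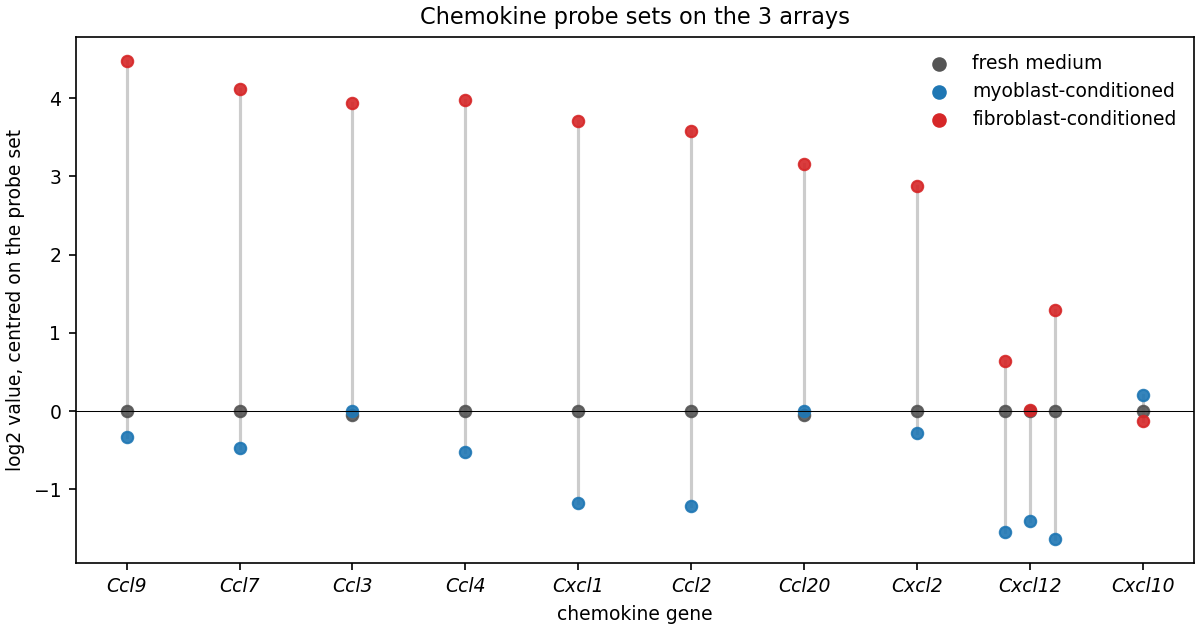
Each point is the centred log2 value (vertical axis) of 1 chemokine probe set on 1 array, coloured by medium, and a grey line joins the 3 arrays of a probe set. Genes are ordered by fibroblast medium minus control. In 8 genes the fibroblast-medium point stands at 2.87 or more and the control point at or near 0, with Ccl2 and Cxcl1 also low in myoblast medium, while the 3 Cxcl12 probe sets are separated mainly by a low myoblast-medium value and Cxcl10 shows little difference.

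The monocyte chemoattractants came first by role. Ccl2, the main ligand of Ccr2 and a recruiter of blood monocytes, had a value of 0.00 on the control array, -1.21 on the myoblast-medium array and 3.58 on the fibroblast-medium array. Ccl7, a related ligand of Ccr2, was at 0.00, -0.47 and 4.11 in the same order. Both genes were thus high in fibroblast medium, 11.9-fold and 17.3-fold above control, and both had their lowest value in myoblast medium. The lower value of Ccl2 in myoblast medium amounted to 2.32-fold, whereas that of Ccl7 (1.38-fold) fell short of 2-fold.

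Ccl3 and Ccl4, the macrophage inflammatory proteins 1-alpha and 1-beta, attract monocytes and T cells, and Ccl3 binds Ccr1. Ccl3 was at -0.04 in control, 0.00 in myoblast medium and 3.94 in fibroblast medium, and Ccl4 was at 0.00, -0.52 and 3.97. Their differences between fibroblast medium and control were nearly equal, at 3.98 and 3.97 (15.8-fold and 15.7-fold). Ccl9, a rodent CC chemokine that acts on myeloid cells through Ccr1, was at 0.00, -0.33 and 4.48. It had the largest difference of the 10 and ranked 8 among the 14218 genes. Ccl20, the ligand of Ccr6 that attracts lymphocytes and immature dendritic cells, was at -0.04, 0.00 and 3.15, or 9.16-fold higher in fibroblast medium than in control. In all 4 of these genes the fibroblast-medium array stood alone, and the widest gap between the other arrays was that of Ccl4, at -0.52 for myoblast medium minus control.

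Among the CXC members, Cxcl1 and Cxcl2 attract neutrophils through Cxcr2. Cxcl1 had values of 0.00 in control, -1.18 in myoblast medium and 3.71 in fibroblast medium, and Cxcl2 had values of 0.00, -0.29 and 2.87. Cxcl1 was 13.1-fold above control in fibroblast medium and 2.26-fold below control in myoblast medium. Its difference of -4.89 between myoblast and fibroblast medium (29.6-fold) was the largest of the 10 genes, followed by Ccl9 at -4.81 and Ccl2 at -4.79. Ccl20 and Cxcl2 were the smallest of the 8, at -3.15 and -3.16.

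Cxcl10, whose protein attracts T cells through Cxcr3, was at 0.00 in control, 0.21 in myoblast medium and -0.12 in fibroblast medium. Each of its 3 pairwise differences was smaller than the largest among the added control transcripts, and the largest was 0.33 between the conditioned media. Cxcl10 was the only member with a higher value in myoblast than in fibroblast medium.

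Cxcl12, the homeostatic chemokine of stromal cells, differed mainly in myoblast medium. Its 3 probe sets were all at 0.00 on the control array and at -1.54, -1.41 and -1.63 on the myoblast-medium array, a mean difference of -1.53 (2.88-fold lower). On the fibroblast-medium array the same probe sets were at 0.64, 0.01 and 1.30. The 3 probe sets were therefore close to each other in myoblast medium and ran from 0.01 to 1.30 in fibroblast medium, where the gene's mean of 0.65 fell short of 2-fold and the highest probe set alone passed it. Cxcl12 had the lowest value of the 10 in myoblast medium minus control and ranked 28 from the bottom of all genes. Fibroblast markers, as stromal cells are the known source of Cxcl12, had a median of -0.12 in that comparison. Of 11, 1 was at least 2-fold lower (Pdgfra at -1.42), against 0.844% of all genes. The part of fibroblasts in the Cxcl12 difference was not tested.

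In myoblast medium minus control, 3 of the 10 genes were at least 2-fold lower (Ccl2, Cxcl1 and Cxcl12) and none was 2-fold higher, against the 0.844% and 1.35% of all genes given above. The median of the 10 was -0.40. Cxcl1, at -1.18, was the nearest member inside the 2-fold line and Ccl4, at -0.52, the nearest outside. Values of 7 members were below 0, and the 3 above 0 were Cxcl10 and, at 0.04 each, Ccl3 and Ccl20. With the arrays centred on the added control transcripts, Ccl3 and Ccl20 were each at -0.13 and Cxcl10 at 0.03, so that 9 members were below 0. The median difference of the added controls in this comparison, 0.29, was larger than the 0.21 of Cxcl10. In myoblast minus fibroblast medium, 9 of 10 members were at least 2-fold lower, against 3.94% of all genes, with a median of -4.21. The comparisons share arrays, so these counts are not independent of each other.

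**Figure D2:**
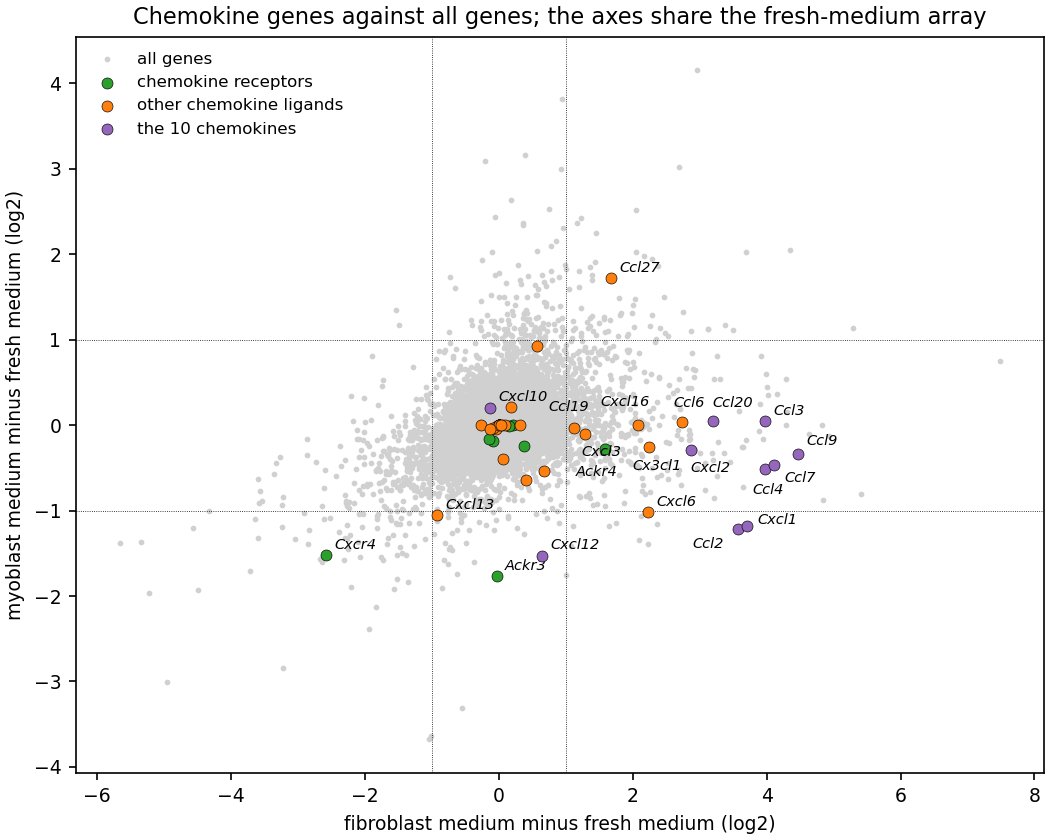
Each point is a gene, placed by its log2 difference between fibroblast medium and control (horizontal) and between myoblast medium and control (vertical). Dotted lines mark 2-fold, and both axes use the same control array. The CC members, Cxcl1 and Cxcl2 lie at 2.87 or more on the horizontal axis and between -1.21 and 0.04 on the vertical axis, Cxcl12 and Ackr3 lie low on the vertical axis, and Cxcr4 is low on both.

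Other chemokine ligands were read from a list of 27 genes, 21 of which had a probe set of their own symbol. In fibroblast medium minus control, 7 of the 21 were at least 2-fold higher, against 4.26% of all genes. As far below were 0, against 2.6%, and the median was 0.32. Ccl6, a rodent relative of Ccl9, was at 2.73, the membrane-bound chemokine Cx3cl1 at 2.25, Cxcl6, another Cxcr2-type ligand, at 2.23, and the scavenger-receptor chemokine Cxcl16 at 2.09. The Cxcl16 probe set had a value on the fibroblast-medium array only, so its difference rests on blank cells read as 0 on the other arrays. Ccl19, a ligand of Ccr7, was at 1.12. Cxcl3, close in sequence to Cxcl1 and Cxcl2, averaged 1.29 across 5 probe sets, which ran from 0.00 to 2.77, and the probe set at 0.00 had no value on any array. In myoblast medium minus control only Ccl27 was at least 2-fold higher, while Cxcl13 (-1.06) and Cxcl6 (-1.02) were at least 2-fold lower. These are 4.76% and 9.52% of the 21, against 1.35% and 0.844% of all genes. Cxcl6 shared with Ccl2 and Cxcl1 a value 2-fold below control in myoblast medium beside a value well above control in fibroblast medium.

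A few ligands differed mainly on the control array. Ccl27, an epithelial chemokine, was at -1.68 in control, 0.04 in myoblast medium and 0.00 in fibroblast medium, and so 3.29-fold and 3.20-fold higher in the conditioned media. Its only probe set carries a suffix with which Affymetrix marks probes shared between transcripts. Cxcl11, a relative of Cxcl10, was at -0.57 in control, 0.35 in myoblast medium and 0.00 in fibroblast medium, short of 2-fold in every comparison. Cxcl13, a B cell attractant, showed the reverse, at 0.92 in control, -0.14 in myoblast medium and 0.00 in fibroblast medium.

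Position in the genome did not separate the genes cleanly. In the GRCr8 gene order, Ccl2 and Ccl7 are neighbours, and the next gene is Ccl11, which encodes eotaxin and was at 0.41 in fibroblast medium minus control. Further along the same chromosome, Ccl5, Ccl9, Ccl6, Ccl3 and Ccl4 follow each other with no other protein-coding gene between them. Of these, Ccl5, which encodes the T cell chemokine RANTES, was at 0.06, against 4.48 for its neighbour Ccl9. On another chromosome, the interferon-type ligands Cxcl11, Cxcl10 and Cxcl9 are adjacent and were at 0.57, -0.12 and 0.10. The probe sets of Cxcl9 had a value on the fibroblast-medium array only. The neutrophil-type group on that chromosome held Cxcl2 (2.87), Cxcl1 (3.71), Cxcl3 (1.29), Pf4 (0.67), Ppbp (-0.13) and Cxcl6 (2.23), so that the platelet chemokine genes Pf4 and Ppbp, which lie between Cxcl3 and Cxcl6, did not reach 2-fold. Genes of one cluster share sequence as well as position, and Cxcl1, Cxcl2 and Cxcl3 in particular could share probes.

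**Figure D3:**
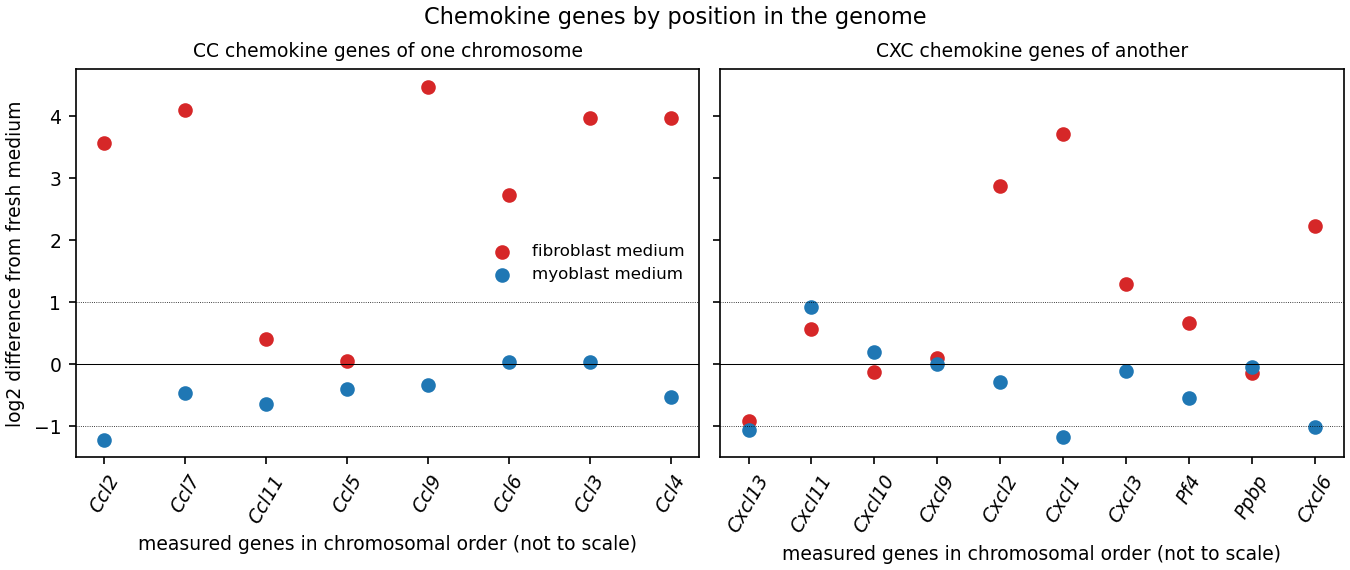
Log2 differences from fresh medium (vertical axis) for the measured CC chemokine genes of one chromosome (left) and the CXC chemokine genes of another (right), in chromosomal order and not to scale. Red points are fibroblast medium and blue points myoblast medium, and dotted lines mark 2-fold. High red values stand beside neighbours near 0, such as Ccl9 at 4.48 beside Ccl5 at 0.06.

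Receptor genes were read as well. Of 24 receptor genes listed, 17 were measured. In fibroblast medium minus control 1 lay 2-fold or more above 0 and 1 as far below. Each is 5.88% of the 17, against 4.26% and 2.6% of all genes. The median was 0.00, and 7 of the 17 were at exactly 0, from probe sets with no value on any array. Ccr2, the receptor of Ccl2 and Ccl7, was at 0.21, and Ccr1, which binds Ccl3 and Ccl9, at 0.38. The Ccr2 probe set had a value on the fibroblast-medium array only. Ccr6, Cxcr2 and Cxcr3, the receptors of Ccl20, of Cxcl1 and Cxcl2, and of Cxcl10, had no value on any array, and their difference of 0.00 comes from blank cells read as 0. Ackr4, an atypical receptor that removes Ccl19 and related ligands, was the one receptor at least 2-fold higher, at 1.59.

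Both receptors of Cxcl12 were at least 2-fold below control in myoblast medium, and Cxcr4 also in fibroblast medium. The 3 probe sets of Cxcr4, the signalling receptor, were at 1.64, 1.43 and 1.49 in control, all at 0.00 in myoblast medium, and at -1.39, -1.01 and -0.78 in fibroblast medium. The mean difference from control was -1.52 (2.87-fold lower) in myoblast medium and -2.58 (5.98-fold lower) in fibroblast medium, and the 3 probe sets kept the same order of media. All 3 carry suffixes that mark possibly shared probes, so Cxcr4 has no value when such probe sets are left out. Ackr3, the scavenging receptor of Cxcl12, was at 0.03 in control, -1.74 in myoblast medium and 0.00 in fibroblast medium, or 3.40-fold lower in myoblast medium than in control. In myoblast medium Cxcl12, Cxcr4 and Ackr3 were thus all at least 2-fold below control, whereas in fibroblast medium only Cxcr4 was.

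Endothelial transcripts moved with Cxcr4, which endothelial cells are known to express. Of 12 measured endothelial markers, 9 were below control by 2-fold or more in fibroblast medium and 5 in myoblast medium. The shares of all genes were 2.6% and 0.844%. The medians of the markers were -2.72 and -0.88. The median of these markers on the arrays was 0.88 in control (from 0.00 to 3.01), 0.00 in myoblast medium (from -0.02 to 0.05) and -1.55 in fibroblast medium (from -4.28 to 0.00). Their part in the Cxcr4 difference was not tested. In these bulk cultures fewer cells of a type and less RNA per cell cannot be told apart.

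Macrophage transcripts moved with the CC members, Cxcl1 and Cxcl2. Of 18 measured macrophage markers, 14 were at least 2-fold higher in fibroblast medium than in control, against 4.26% of all genes. None was lower, and the median was 1.88. The list's median was 0.00 in control (from -1.13 to 0.10), -0.46 in myoblast medium (from -0.94 to 0.08) and 1.88 in fibroblast medium (from 0.00 to 5.41). Adgre1, a macrophage surface receptor, was at 5.41 in fibroblast medium minus control, the Fc receptor Fcgr2b at 5.30 and lysozyme Lyz2 at 4.85, while the scavenger receptor Cd163 was at 0.08. In myoblast medium minus control 16 of the 18 were below 0 and 0 were 2-fold lower. Fcgr2b, at 1.13, was the only one 2-fold higher there, against 1.35% of all genes. The part of macrophages in the chemokine differences was not tested, and the centred values do not show which markers were absent from an array. Neutrophil and lymphocyte markers each had a median of 0.00 in fibroblast medium minus control. None of 6 measured neutrophil markers and none of 11 lymphocyte markers reached 2-fold in any comparison. Lists this short could hold none at the all-gene shares, which were 4.26% higher and 2.6% lower for fibroblast medium. S100a9 was at -0.23 and Camp at 0.58 in fibroblast medium minus control. In that comparison 2 of the 6, Cxcr2 among them, and 2 of the 11 were at exactly 0, from blank cells read as 0. Skeletal myoblast markers, of which 7 were measured, lay between -0.20 and 0.00 in the same comparison.

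Some cytokines that induce chemokines were high on the same array. Of 17 measured, 4 exceeded control by 2-fold or more in fibroblast medium, against 4.26% of all genes. As far below were 0, against 2.6%, and the median was 0.21. Il1b was at 4.94, Il6 at 4.29, Il1a at 3.91 and Il18 at 2.53, while Ifng was at -0.22. The Il6 probe set had a value on the fibroblast-medium array only, with blanks read as 0 on the others. In myoblast medium none of these 4 reached 2-fold. The only member of the list that did was Il33, at -1.09, against 0.844% of all genes 2-fold lower. Il33 was also among the genes nearest to Cxcl12 by pattern.

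Subunits and regulators of NF-kB were also read. None of 12 measured reached 2-fold against control in either medium. A list this short could hold none at the all-gene shares, which were 4.26% higher and 2.6% lower for fibroblast medium. All 12 were above 0 in fibroblast medium, with a median of 0.61. Nfkb2 was highest at 0.96, from a probe set with a value on the fibroblast-medium array only. It was followed by Nfkbia, which encodes the inhibitor of NF-kB, at 0.85 and Tnfaip3, a deubiquitinase of the feedback loop, at 0.80. In myoblast medium minus control Tnfaip3 was at -0.97 and Nfkbia at -0.45. On the 3 arrays Tnfaip3 was at 0.00 in control, -0.97 in myoblast medium and 0.80 in fibroblast medium. Ccl2, Ccl4, Ccl7, Ccl9, Cxcl1, Cxcl2 and Cxcl12 had the same order of media. So did Nfkbia and the macrophage markers Adgre1 and Lyz2, so the order is not particular to Tnfaip3.

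Interferon-response genes, the group to which Cxcl10 is usually counted, were mostly lower in both conditioned media. Of 19 measured, 7 were at least 2-fold lower in fibroblast medium and 5 in myoblast medium, against 2.6% and 0.844% of all genes. The medians of the list were -0.36 and -0.67. Rtp4 was at -1.67, Irf7 at -1.56 and Usp18 at -1.53 in fibroblast medium minus control. The immunoproteasome genes Psmb8 and Psmb9 were at 1.09 and 1.03. Cxcl10 itself lay within the spread of the added control transcripts in both comparisons.

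**Figure D4:**
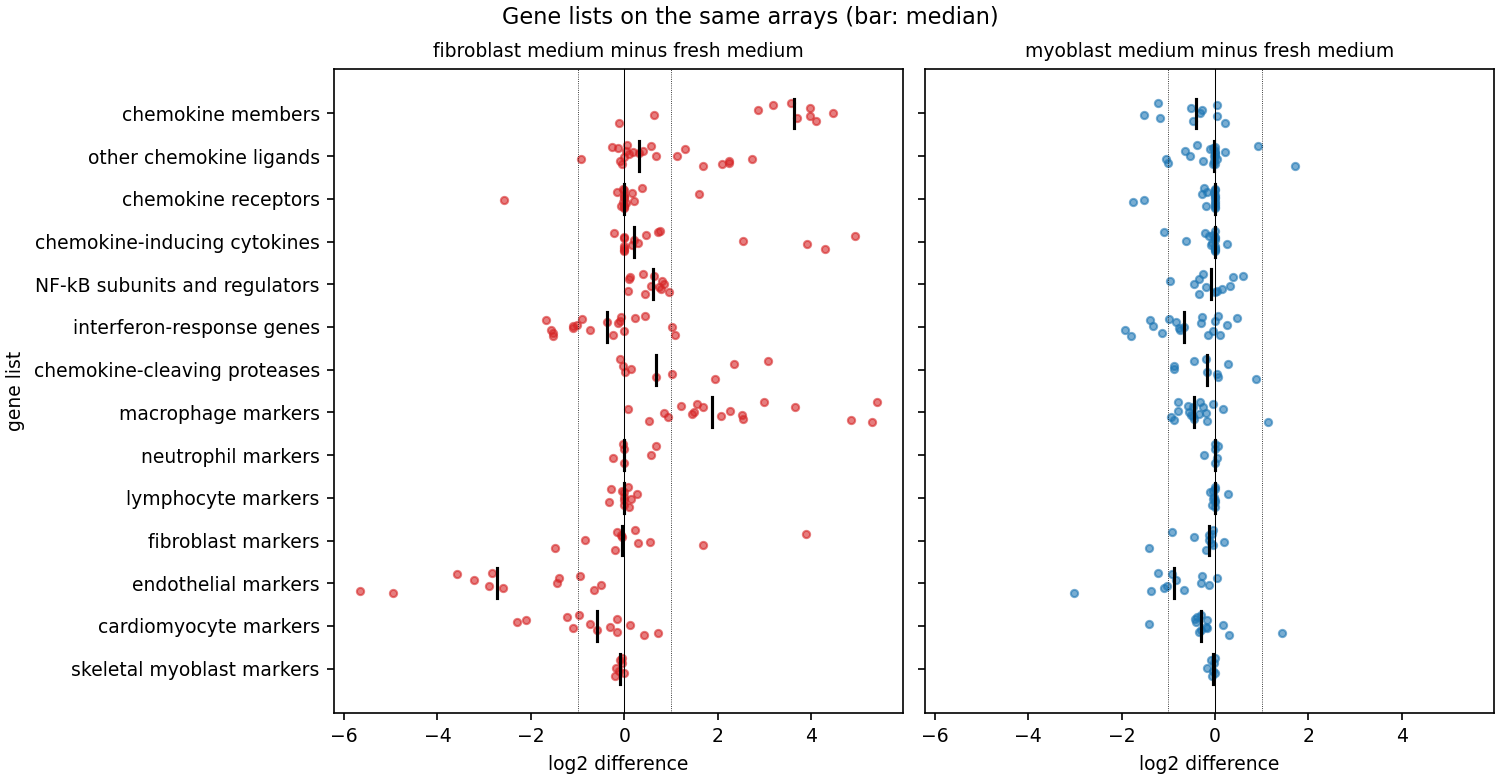
Each point is a gene of the named list, placed by its log2 difference between fibroblast medium and control (left) and between myoblast medium and control (right), and the black bar is the list's median. Dotted lines mark 2-fold. In fibroblast medium the chemokine median of 3.64 and the macrophage median of 1.88 lie to the right and the endothelial median of -2.72 to the left.

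The 7 promoter windows, including those of Ccl9 and Ccl20, were searched on both strands for the kappa-B consensus and 2 further motifs, chosen with the values known. A kappa-B match lay in 6 of them, all but that of Cxcl12, against 6.33% of the 33469 rat promoter windows of the same length. Cxcl1 held GGGAATTTCCC from 84 to 74 bases before the start, where overlapping matches on both strands make up the 11 letters, and Cxcl2 held GGGGATTTCCC from 74 to 64 bases before it. Ccl7 held GGAAGATCCC from 59 to 50, Ccl20 GGAAAACCCC from 89 to 80 and Ccl9 GGAAAGCCCC from 106 to 97 bases before the start, each as a match on the opposite strand. Cxcl10 held 2 separate runs, GGGAAATTCC from 187 to 178 and GGGAACTTCCC from 128 to 118 bases before the start. The gene with the most matching letters among the 7 was therefore Cxcl10, which did not reach 2-fold in any comparison. Cxcl6 holds the same 11 letters as Cxcl1, from 88 to 78 bases before its start.

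The AP-1-type motif TGANTCA was present in Ccl7 and Cxcl10, and in 6.34% of all windows. The interferon-type motif, GAAA repeated in the same direction after 2 other bases, was present in Cxcl10, and in 3.41% of all windows. No match to these motifs overlapped a kappa-B match in the 7 windows. Among the other measured ligands with a promoter entry, 1 of 6 that were at least 2-fold higher in fibroblast medium held a kappa-B match (Cxcl6), and 1 of 11 that were not did so (Cxcl11). A match is a description of these letters and not of binding.

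**Figure D5:**
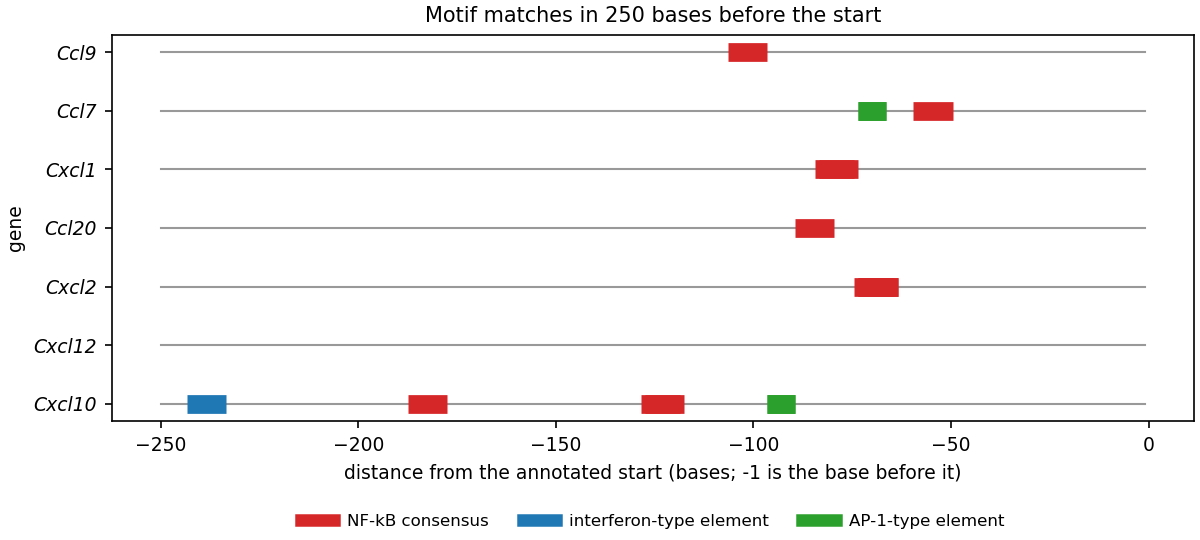
Each line is the 250 bases before the annotated start of a chemokine gene, with genes ordered by fibroblast medium minus control and the horizontal axis giving the distance from the start in bases. Red blocks are matches to the kappa-B consensus, blue to the interferon-type and green to the AP-1-type motif. In the 5 genes high in fibroblast medium the red block lies between 106 and 50 bases before the start, Cxcl10 has 2 red blocks farther away, and Cxcl12 has none.

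The genes closest in pattern were found by the Euclidean distance over both differences from control, a measure over 3 arrays. Nearest to Ccl2 were Pilra, a myeloid inhibitory receptor (distance 0.49), Tm4sf1, a membrane protein (0.51), and C5ar1, the complement C5a receptor (0.67). Nearest to Cxcl12 were Crip1 (0.37), Abi3bp (0.42) and the cytokine gene Il33 (0.45). Only 1 gene lay within 0.5 of Ccl2 and 7 lay within 0.5 of Cxcl12, while 9677 lay within 0.5 of Cxcl10, where the genes with little difference are. The nearest to Cxcl10 were Mrpl12, Fstl4 and Mrpl58, at distances from 0.0089 to 0.014.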

How the data were processed

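Per the labels' protocols, total RNA of each of the 3 cultures was prepared with the Affymetrix 3' IVT Express kit and read on 1 array. RMA is named in the submitters' processing notes, and its software and settings were not stated. The deposited log2 values are centred on the median array of each probe set, which was read from the values: of 31099 probe sets, 17117 had values of opposite sign on 2 arrays, 8002 a value on 1 array and 5980 on none, and 0 were filled on all 3. Blanks were read as 0. Where 2 arrays had values the blank array is the median, and only these probe sets show the centring. Where more arrays were blank, ties at the median and missing values cannot be told apart. The log base is inferred from RMA.

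The platform annotation named 20832 probe sets with 1 gene, of which 20764 matched the GRCr8 gene table by Entrez ID. Probe sets of a gene were averaged (14218 genes). The design planned differences between arrays with counts at 2-fold and no test. Members and lists were chosen with earlier results of these data known. Named were all 10 members, measured ligands and receptors, for each other list up to 3 genes with the largest difference in fibroblast medium and up to 2 of opposite sign, and the 3 genes nearest in pattern to Ccl2, Cxcl10 and Cxcl12; Cd163, Il18 and the myoblast-medium values were added after values were seen. The counting was tested on simulated data. Python 3.11.15, NumPy 2.4.6, pandas 2.3.3 and Matplotlib 3.10.9 were used. Alternatives were the median or widest-range probe set, leaving out possibly shared probe sets, only probe sets with values on 2 arrays, centring and other thresholds.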

Additional observations from a re-analysis of the deposited data

How the results depend on the processing

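The counts of chemokines at least 2-fold from control or between the conditioned media stayed within 1.5 times of those reported under every alternative but one. At 3-fold, 0 members were called in myoblast medium minus control, where the lowest member, Cxcl12, was 2.88-fold below control. That count therefore depends on the threshold. In fibroblast medium minus control the count was 9 with the widest-range probe set, which adds Cxcl12 (1.30), and at 1.5-fold. All members but Cxcl12 have 1 probe set, with values on 2 arrays and without a shared-probe suffix. The choice of probe set could not change their values, so most of this stability was fixed in advance. Of 180 member values recomputed, 168 moved by less than 1 SD of the added control transcripts and 12 by more. No value of at least 1 in size changed sign. In myoblast medium minus control, Ccl3 and Ccl20 changed sign, from 0.04 to -0.13, with centring on the added controls. Centring each array on its own median changed nothing, since that median is 0. Over all genes, centring on the added controls gave 114 higher and 199 lower in myoblast medium minus control, against 192 and 120. At 1.5-fold the numbers higher and lower were 1293 and 991 for fibroblast medium, 536 and 407 for myoblast medium, and 946 and 1186 between the conditioned media, and at 3-fold 262 and 141, 54 and 21, and 84 and 255, against 605 and 369, 192 and 120, and 302 and 560 at 2-fold. No paired analysis was possible because each medium had 1 array. Signal over background is not known for centred values.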

Other observations

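Proteases that trim or inactivate chemokines, and the metalloprotease inhibitor Timp1, were measured on the same arrays. Of these 9 genes, 4 exceeded control by 2-fold or more in fibroblast medium, against 4.26% of all genes. As far below were 0, against 2.6%, and the median was 0.69. Mmp12, the macrophage metalloelastase, was at 3.08, Mmp3, stromelysin, at 2.36, and Timp1 at 1.95. Dpp4, the dipeptidyl peptidase that cleaves Cxcl12 and Cxcl10, was at -0.08, and Mmp14 at -0.03. In myoblast medium none of the 9 reached 2-fold, with Timp1 at 0.87 and Mmp14 at -0.88. The shares of all genes there were 1.35% higher and 0.844% lower.

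Fibroblast and cardiomyocyte markers did not share one direction. Of 11 fibroblast markers, 2 were at least 2-fold higher in fibroblast medium than in control (Mfap5 at 3.88 and Thy1 at 1.69). As far below was 1 (Pdgfra at -1.48). The shares of all genes were 4.26% higher and 2.6% lower. Of 13 cardiomyocyte markers, 4 were at least 2-fold lower, against 2.6% of all genes, and none was 2-fold higher. Among the 4 were the atrial light chain Myl7 at -2.30 and the myosin heavy chain Myh6 at -2.11. The slow myosin heavy chain Myh7 was at 0.72 and the natriuretic peptide gene Nppa at 0.41 in the same comparison, and Myh7 was at 1.43 in myoblast medium minus control. The fibroblast marker Dcn, at -0.85, lay below control without reaching 2-fold.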
